A study of Homo sapiens with 6 samples.

Results

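Nucleoporins and nuclear transport receptors were followed in H226 cells, an established line labelled as squamous lung carcinoma, after knockdown of the long noncoding RNA *SWINGN*. The genes were chosen by name, with earlier results of these data known. They are the genes whose symbols begin with NUP followed by a number, the karyopherins (KPNA and KPNB), importins (IPO), exportins (XPO) and transportins (TNPO), together with *AAAS*, *SEH1L*, *RANBP2*, *TPR*, *RAE1* and *CSE1L*. This gave 48 of the 17222 gene names of the table, of which 24 encode nucleoporins and 24 encode transport receptors. Control cells received ASO_CTRL, a control antisense oligonucleotide, and knockdown cells received ASO_LINC#3, an antisense oligonucleotide against *SWINGN*. Both conditions were transient transfections of the same line without further treatment, and RNA was taken after 48 h from 3 replicates of each. A single targeting oligonucleotide was sequenced, so an effect of the loss of *SWINGN* and another effect of that oligonucleotide cannot be told apart. The study describes its experiments in general as biological triplicates, while the labels of these libraries give replicate numbers without saying how the cultures were kept apart. Depletion of *SWINGN* in these libraries was not checked, since its own reads were not analysed here.

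The nuclear pore complex is a ring of nucleoporins set into the nuclear envelope. Scaffold nucleoporins of the Y complex and the inner ring hold it together, nucleoporins with phenylalanine-glycine repeats fill the central channel, and further ones form the cytoplasmic filaments and the nuclear basket. Transport receptors carry cargo through the channel. Importin alpha recognises classical nuclear localisation signals and is taken in by importin beta, other members of the importin beta family bind their cargo directly, and exportins leave the nucleus with cargo and the GTP-bound form of Ran.

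Reads counted on genes ranged from 5738340 to 10546786 in the ASO_CTRL libraries and from 3686828 to 6780016 in the ASO_LINC#3 libraries. ASO_LINC#3 replicate 3 had the fewest, and it stood apart from the other knockdown libraries: the chi-square per degree of freedom of the counts was 2.63 between replicates 1 and 2, and 14.4 and 15.6 between each of these and replicate 3. Between the control libraries it was 7.45 to 13.1, so replicates 1 and 2 of the knockdown were also closer to each other than any pair of controls. Results that rest on this library are therefore given with and without it. Levels are given as CPM, the reads of a gene scaled by TMM to the reads on tested genes of its library. Differences are log2 fold changes of ASO_LINC#3 over ASO_CTRL from edgeR's quasi-likelihood F-test, with p-values adjusted by the Benjamini-Hochberg method over all 14660 genes tested. The thresholds for a call were those of the study, an adjusted p-value of 0.01 together with a bound of 0.5 on the log2 fold change in either direction. For any gene taken alone, exact permutation of 3 and 3 libraries reaches no smaller two-sided p-value than 0.1.

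Of the markers looked at, the squamous genes *KRT5* and *KRT6A* had reads, *KRT6A* with at most 1 read in any control library, whereas no reads were listed for *TP63*, *SOX2*, *KRT14* and *DSG3*. The simple epithelial keratins were high, with a summed level of 11700 to 12600 CPM in ASO_CTRL and 7100 to 12400 CPM in ASO_LINC#3. The other epithelial markers looked at, *EPCAM* and *CDH1*, had no reads listed. All 4 mesothelial markers had reads, and their summed level was 634 to 834 CPM in ASO_CTRL and 209 to 323 CPM in ASO_LINC#3, mostly through *CALB2*. Of the fibroblast markers 1 of 4 had reads, *THY1*, while *DCN*, *LUM* and *PDGFRA* had none listed, nor did the 3 leukocyte or the 3 endothelial markers. The 4 proliferation markers *MKI67*, *TOP2A*, *PCNA* and *CCNB1* summed to 520 to 542 CPM in ASO_CTRL and 415 to 451 CPM in ASO_LINC#3. None of the 4 was called, where 7.54% of all tested genes were. The part of these marker levels in the results on transport genes was not tested. In bulk RNA, fewer cells expressing a gene and less of its RNA per cell cannot be told apart.

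Most nucleoporin and receptor genes were within a narrow range of their control level after *SWINGN* knockdown. A single gene, *AAAS*, was called, and it fell to 0.436 of its control level. It was 1 of 47 genes tested, or 2.13%, where 7.54% of all tested genes were called. At that share a role group of 11 genes or fewer may well hold no call. The counts of calls in single groups below are therefore a description. The remaining gene, *KPNA5*, which encodes a minor importin alpha, had 7 to 15 reads per library and was not tested. Point estimates were above the control in 22 genes and below it in 25, with a median log2 fold change of -0.05, against -0.00272 over all tested genes. The median size of the change, regardless of sign, was 0.20 on the log2 scale for the transport genes and 0.31 for all genes. An unadjusted p-value below 0.05 was reached by 10 of the 47 (21.3%), 6 lower and 4 higher, and by 32.4% of all genes.

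The precision of these estimates sets a bound on what could have been missed. The 95% confidence interval lay within a log2 change of 1 in either direction for 39 of the 47 transport genes (83.0%) and for 67.1% of all tested genes. It lay within 0.5 for 14 of them (29.8%) and for 15.1% of all genes. A log2 change of 1 was thus outside the interval for most of these transcripts, whereas for the majority the interval reached beyond 0.5 in at least 1 direction. The median distance from the estimate to the bound of its interval was 0.37 for the transport genes and 0.45 for all genes.

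**Figure D1:**
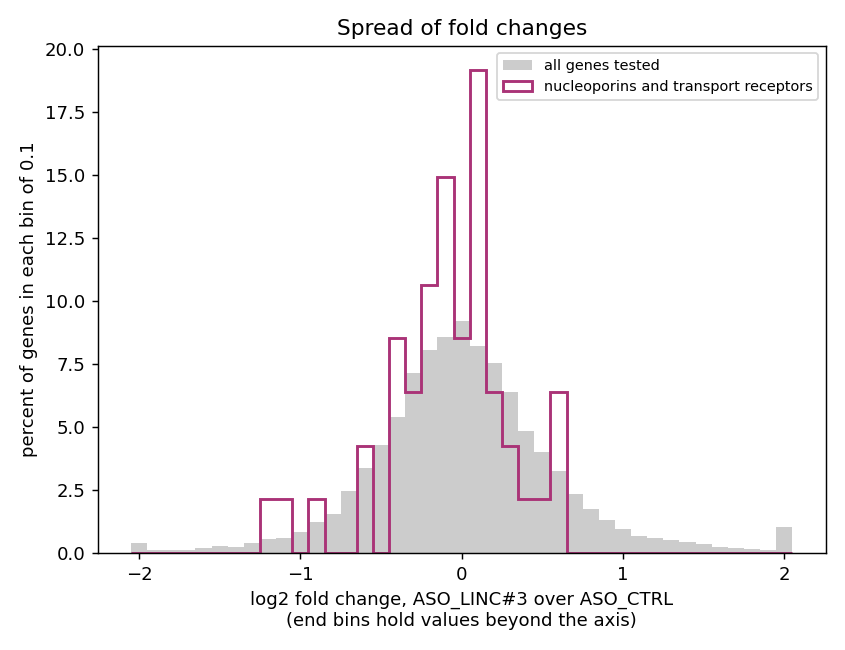
Histogram of log2 fold changes (x axis, ASO_LINC#3 over ASO_CTRL, bins of 0.1) as a percent of genes (y axis) for all 14660 tested genes in grey and the 47 tested nucleoporin and transport receptor genes as a line. The transport genes run from -1.20 to 0.58 and gather around 0, with a median size of change of 0.20 against 0.31 for all genes.

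Non-overlapping conditions were seen in 14 of the 47 genes (29.8%), against 36.1% of all tested genes. In 11 of them the 3 knockdown libraries lay below the 3 control libraries (23.4%, against 17.3% of all genes), namely *NUP85*, *SEH1L*, *AAAS*, *NUP88*, *NUP210*, *KPNA1*, *IPO11*, *IPO4*, *CSE1L*, *XPO4* and *XPO5*. In the other 3 they lay above (6.38%, against 18.7%), namely *RAE1*, *TPR* and *XPOT*. At an adjusted p-value of 0.05 with the same bound on the fold change, 5 of the 47 passed (10.6%), against 16.8% of all genes. These were *AAAS*, *IPO4*, *NUP210*, *XPO4* and *XPOT*.

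**Figure D2:**
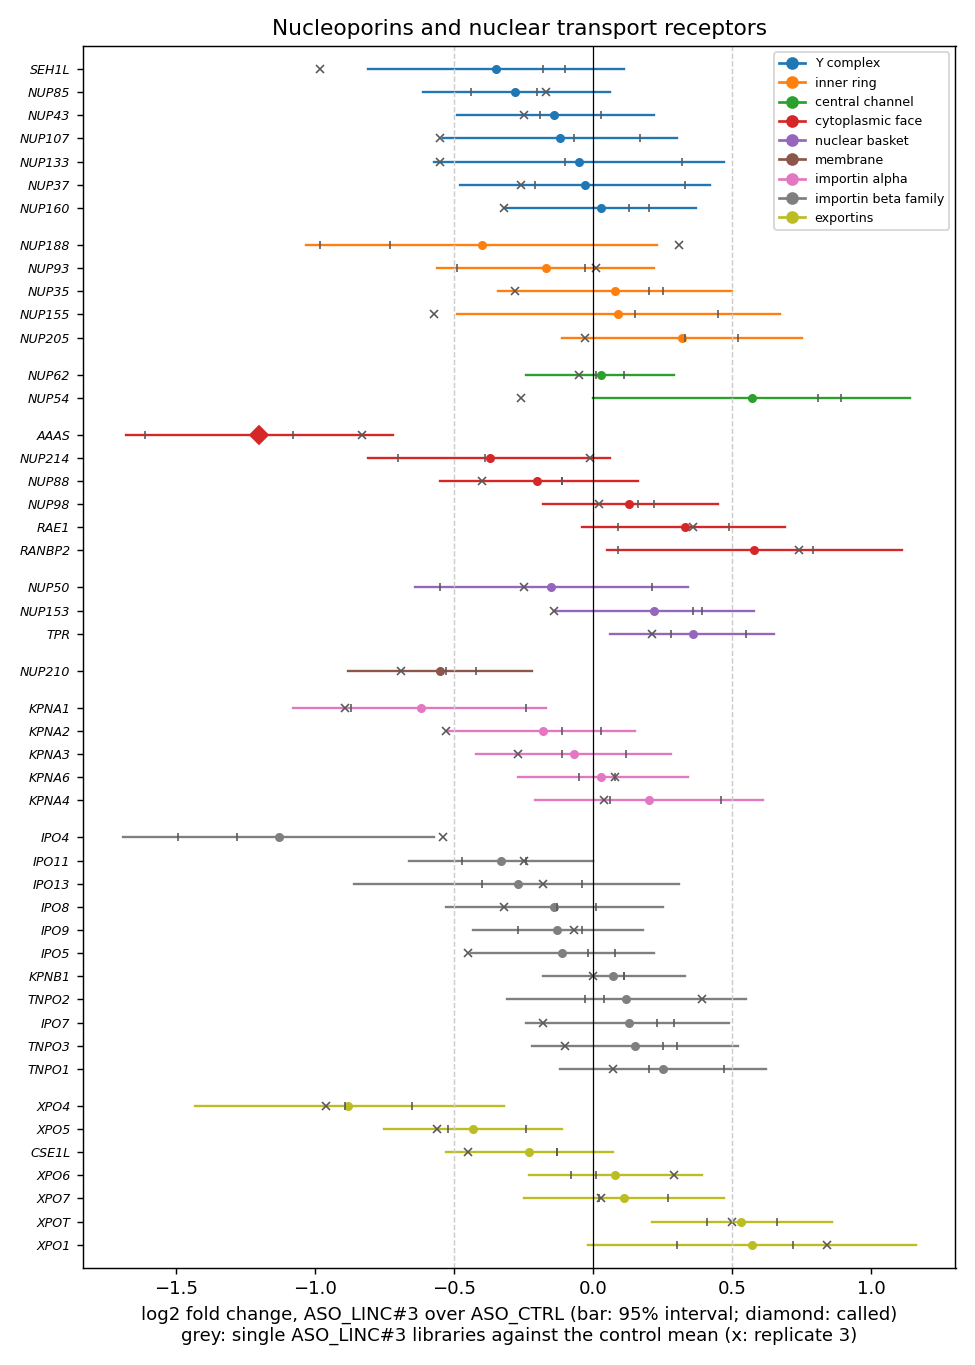
Log2 fold change of each tested gene (x axis, ASO_LINC#3 over ASO_CTRL) with its 95% confidence interval, by role in the pore or in transport (y axis and colour), the called gene *AAAS* as a diamond. Grey marks are single ASO_LINC#3 libraries against the control mean, with replicate 3 as a cross, and dashed lines mark a change of 0.5 in either direction. *AAAS* at -1.20 and *IPO4* at -1.13 lie lowest, and most intervals include 0.

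*AAAS* encodes ALADIN, a WD-repeat nucleoporin of the cytoplasmic face that is anchored through the membrane nucleoporin NDC1 and is mutated in Allgrove syndrome. The gene lies at chr12:53701240-53718648 on the minus strand (GRCh37). Its level was 19.0, 18.6 and 16.7 CPM in ASO_CTRL replicates 1, 2 and 3, and 5.73, 8.39 and 10 CPM in ASO_LINC#3 replicates 1, 2 and 3. All knockdown libraries were therefore below all control libraries, with the smallest distance in replicate 3. The log2 fold change was -1.20 ± 0.22 (SE), with a confidence interval from -1.68 to -0.72 and an adjusted p-value of 0.00432, and the means were 18.1 ± 1.23 and 8.05 ± 2.17 CPM (SD, n = 3). Without ASO_LINC#3 replicate 3 the value was -1.36, with an adjusted p-value of 0.000466. The call did not hold when any of the other 5 libraries was left out, when the adjusted p-value was between 0.0144 and 0.0234 and the log2 fold change between -1.25 and -0.98. *NDC1*, its membrane anchor, had a log2 fold change of -0.20 with a confidence interval from -0.61 to 0.21.

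Of the 6 genes of the cytoplasmic face *AAAS* alone was called, and the others lay on both sides of their control level. *RANBP2*, the large filament protein that binds Ran and acts as a SUMO ligase, had 7.27, 9.46 and 7.35 CPM in ASO_CTRL and 8.52, 14.0 and 13.6 CPM in ASO_LINC#3. Its conditions overlapped through the first knockdown replicate, and the log2 fold change of 0.58 ± 0.24 had an adjusted p-value of 0.119. *RAE1*, an mRNA export factor that binds NUP98, had 17.4, 17.6 and 16.7 CPM in ASO_CTRL and 18.4, 24.3 and 22.2 CPM in ASO_LINC#3. These conditions did not overlap, yet the adjusted p-value was 0.201. *NUP98* itself, whose repeats line the channel from both faces, was at 53.6 ± 6.59 and 58.6 ± 4.16 CPM, a log2 fold change of 0.13. *NUP214* and *NUP88*, which form a complex of the filaments, had -0.37 and -0.20, with adjusted p-values of 0.221 and 0.434.

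Scaffold genes of the Y complex lay close to their control level. None of the 7 genes of the Y complex was called, their log2 fold changes ran from -0.35 to 0.03 with a median of -0.12, and the smallest adjusted p-value was 0.239. That value belonged to *NUP85*, with 48.1, 57.8 and 44.6 CPM in ASO_CTRL and 36.6, 43.5 and 44.2 CPM in ASO_LINC#3. Its knockdown libraries were all lower, but the highest of them nearly met the lowest control. *SEH1L*, which the Y complex shares with the GATOR complex that senses amino acids, had 38.1, 32.9 and 34.4 CPM in ASO_CTRL and 32.8, 31.0 and 17.6 CPM in ASO_LINC#3. Its log2 fold change of -0.35 rested mostly on replicate 3 and was -0.14 without it. *NUP107* had -0.12 and *NUP160* had 0.03, with confidence intervals from -0.54 to 0.30 and from -0.32 to 0.37. *NUP133*, *NUP37* and *NUP43* lay between -0.14 and -0.03.

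In the inner ring and the central channel, ASO_LINC#3 replicate 3 differed from the other knockdown libraries. In all 5 inner ring genes and both central channel genes, its change from the control mean had the opposite sign to those of replicates 1 and 2, although in *NUP93*, *NUP205* and *NUP62* it was within 0.05 of 0. The same was true of 9 of the 24 nucleoporins (37.5%) and of 2 of the 23 tested receptors (8.7%). Over the whole set it was true of 11 of the 47 tested genes (23.4%), against 27.0% of all tested genes. None of these 7 genes was called with all libraries, with smallest adjusted p-values of 0.291 in the inner ring and 0.152 in the channel.

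*NUP188* and *NUP54* were the clearest cases. *NUP188*, a large inner ring scaffold protein, had 32.1, 28.0 and 27.3 CPM in ASO_CTRL and 17.3, 14.5 and 36.1 CPM in ASO_LINC#3. Replicates 1 and 2 were below every control library and replicate 3 was above every control library. The log2 fold change was -0.40 ± 0.28 with an adjusted p-value of 0.36 over all libraries, and -0.86 with an adjusted p-value of 0.00147 without replicate 3. *NUP54*, a channel nucleoporin with phenylalanine-glycine repeats that assembles with NUP62, had the reverse pattern. It was at 32.1, 37 and 43.8 CPM in ASO_CTRL and at 65.7, 69.5 and 31.2 CPM in ASO_LINC#3, so replicate 3 was below every control. Its log2 fold change was 0.57 ± 0.26 with an adjusted p-value of 0.152, and 0.84 with an adjusted p-value of 0.000894 without replicate 3. Without that library, 4 of the 47 genes were called (8.51%), *AAAS*, *IPO4*, *NUP188* and *NUP54*, against 17.2% of the 15176 genes then tested. That fit keeps the 2 knockdown libraries that were closest to each other (chi-square per degree of freedom 2.63, against 7.45 to 13.1 between controls). The part of their small spread in the p-values without replicate 3 was not tested.

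The difference of replicate 3 was also examined after a correction for base composition. The *NUP188* transcript has a GC content of 52.5% and that of *NUP54* 38.5%. Once the dependence of each library on base composition and length had been taken out, the changes of *NUP188* in replicates 1, 2 and 3 were -0.78, -1.0 and 0.22, and those of *NUP54* were 0.65, 0.68 and -0.10. Before the correction they were -0.73, -0.98 and 0.31 in *NUP188* and 0.81, 0.89 and -0.26 in *NUP54*, so in both genes the value of replicate 3 came nearer to 0 with it and kept its sign. In *NUP205* replicate 3 went from -0.03 to 0.12 and no longer differed in sign from the others, at 0.25 and 0.44. Replicate 3 came nearer to 0 in *NUP155*, from -0.57 to -0.37, and in *NUP35*, from -0.28 to -0.09. It moved away from 0 in *NUP62*, from -0.05 to -0.26, and in *NUP93*, from 0.01 to 0.07. The part of base composition in the difference of replicate 3 was not tested beyond these values. *NUP62*, the most abundant nucleoporin of the set, was at 174 ± 9.21 CPM in ASO_CTRL and 177 ± 10.1 CPM in ASO_LINC#3, a log2 fold change of 0.03 with a confidence interval from -0.24 to 0.29. *NUP205* had 0.32, *NUP93* -0.17, *NUP155* 0.09 and *NUP35* 0.08, none of them called.

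Among the genes of the nuclear basket and the membrane ring, *TPR* and *NUP210* were without overlap, in opposite directions. *TPR*, which forms the filaments of the basket, had 85.5, 84.1 and 80 CPM in ASO_CTRL and 122, 101 and 96.2 CPM in ASO_LINC#3. All knockdown libraries were higher, and the log2 fold change of 0.36 ± 0.13 had an adjusted p-value of 0.0921. *NUP153*, which anchors the basket, had 0.22 and *NUP50*, which helps release cargo from importin alpha, had -0.15, with adjusted p-values of 0.382 and 0.678. *NUP210* encodes a membrane-spanning glycoprotein of the pore and was the only gene of that class in the set. Its levels were 59.3, 47.0 and 50.2 CPM in ASO_CTRL and 38.8, 35.8 and 32 CPM in ASO_LINC#3. These did not overlap, and the log2 fold change of -0.55 ± 0.15 had an adjusted p-value of 0.0277, short of the threshold.

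**Figure D3:**
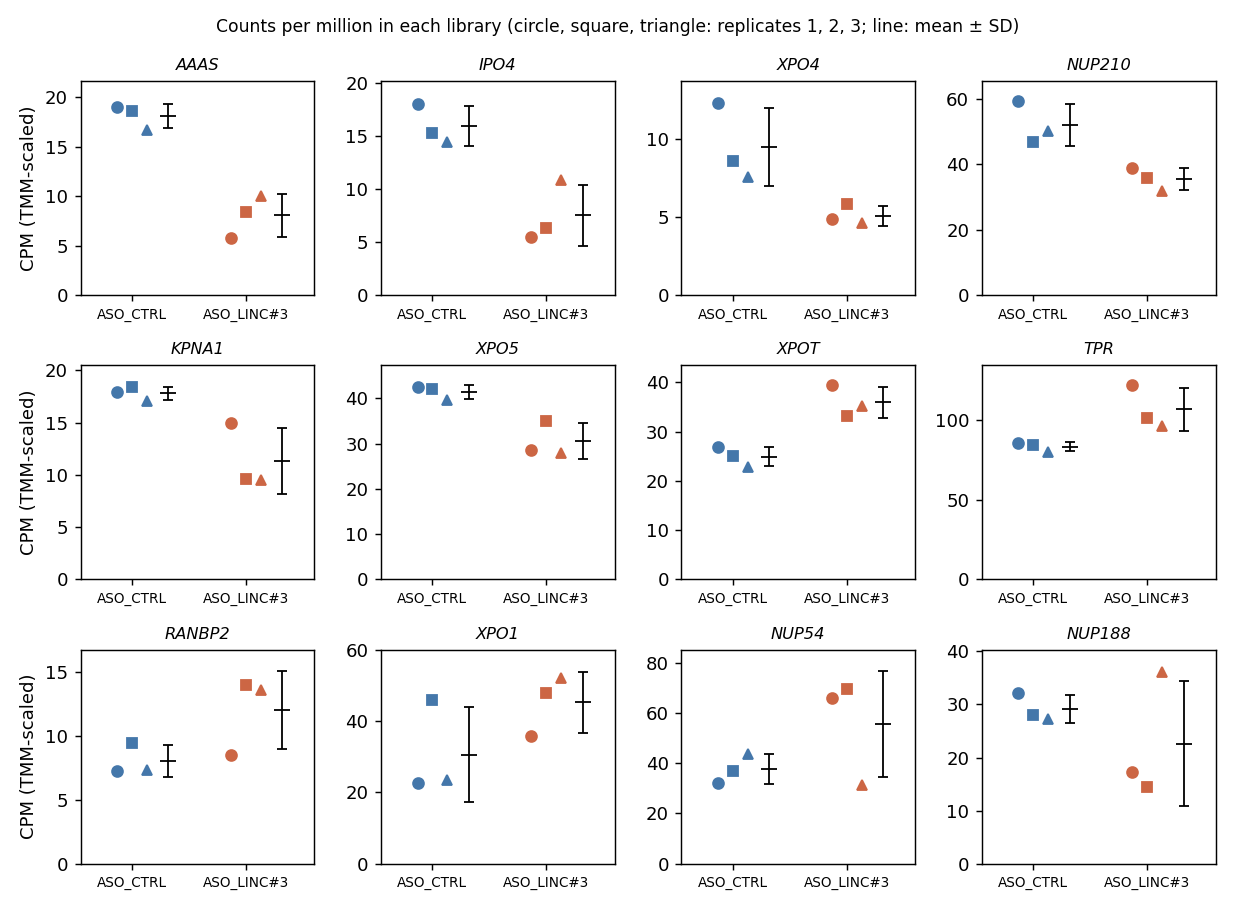
CPM (y axis, linear from 0) in each ASO_CTRL and ASO_LINC#3 library for 12 of the genes, with the mean ± SD of each condition beside the points. The conditions do not overlap in *AAAS*, *IPO4*, *XPO4*, *NUP210*, *KPNA1*, *XPO5*, *XPOT* and *TPR*, while in *NUP54* and *NUP188* the third knockdown replicate (triangle) lies apart from the other knockdown libraries.

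Among the importins, *IPO4* was the gene nearest to the threshold. The encoded importin carries histones and ribosomal proteins into the nucleus, and the gene lies at chr14:24649425-24658075 on the minus strand (GRCh37). Its level was 18.0, 15.3 and 14.4 CPM in ASO_CTRL and 5.44, 6.33 and 10.8 CPM in ASO_LINC#3. All knockdown libraries were lower, with replicate 3 closest to the controls. The log2 fold change was -1.13 ± 0.25, with a confidence interval from -1.69 to -0.57 and an adjusted p-value of 0.0119. Without replicate 3 it was -1.43, with an adjusted p-value of 0.000337, and DESeq2 and limma-voom also called the gene, at adjusted p-values of 0.00134 and 0.00702. It was not called when any of the other 5 libraries was left out, with adjusted p-values from 0.0351 to 0.0639 and log2 fold changes from -1.20 to -0.93. The annotated *IPO4* gene overlaps the end of *REC8*, which encodes a meiotic cohesin subunit, by 39 bases on the opposite strand. *REC8* fell from 370 ± 27.2 to 204 ± 48.3 CPM, with a log2 fold change of -0.87 ± 0.17 and an adjusted p-value of 0.0059. The strand setting of the authors' counting is not given in the sources used here, so reads from the overlap cannot be told apart.

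The other importins of the beta family were near their control level. With *IPO4* included, the 11 genes of the family had a median log2 fold change of -0.11. None was called, where 7.54% of all tested genes were. *KPNB1*, importin beta itself, was at 355, 409 and 375 CPM in ASO_CTRL and at 409, 410 and 381 CPM in ASO_LINC#3. The log2 fold change was 0.07 ± 0.12, with a confidence interval from -0.18 to 0.33. *TNPO1*, which imports RNA-binding proteins such as hnRNP A1, had 0.25, and *IPO7*, an importin of ribosomal proteins and histone H1, had 0.13. *IPO11*, an importin of ubiquitin-conjugating enzymes, had 26.5, 25.5 and 27.3 CPM in ASO_CTRL and 19.0, 22.2 and 22.2 CPM in ASO_LINC#3. These conditions did not overlap, and its log2 fold change of -0.33 ± 0.15 had an adjusted p-value of 0.158. The remaining 6 ran from -0.27 in *IPO13* to 0.15 in *TNPO3*.

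None of the 5 importin alpha genes tested was called, where 7.54% of all tested genes were. *KPNA1* was nearest, with 17.9, 18.4 and 17.1 CPM in ASO_CTRL and 15.0, 9.58 and 9.49 CPM in ASO_LINC#3. The first knockdown replicate was close to the controls and the other two were lower, and the log2 fold change of -0.62 ± 0.21 had an adjusted p-value of 0.060. *KPNA2*, the importin alpha of proliferating cells, was at 400, 370 and 392 CPM in ASO_CTRL and 395, 360 and 268 CPM in ASO_LINC#3. Only replicate 3 was lower than the range of the controls by a clear margin, and the log2 fold change of -0.18 ± 0.15 became -0.04 without it. *KPNA6* had 0.03, *KPNA3* -0.07 and *KPNA4* 0.20.

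Per length of transcript, *KPNA2* was by far the most abundant importin alpha. Within each library it made up 90.5%, 90.3% and 91.6% of the summed CPM per kb of the 6 importin alpha genes in ASO_CTRL and 91.4%, 89.8% and 88.1% in ASO_LINC#3. The share of *KPNA1* was 1.20% ± 0.0785 in ASO_CTRL and 0.859% ± 0.158 in ASO_LINC#3, and that of *KPNA5* was below 0.2% in every library. Among the 11 importin beta family genes, *KPNB1* held 42.1% ± 1.03 in ASO_CTRL and 44.4% ± 1.54 in ASO_LINC#3, and *IPO5*, an importin of ribosomal proteins, held 21.2% ± 0.615 and 19.5% ± 2.28. *KPNA2*, and *KPNB1* followed by *IPO5*, led their families in every library. Lengths are those of a canonical transcript, and reads from oligo-dT-primed libraries need not cover a transcript evenly, so these shares are a description.

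**Figure D4:**
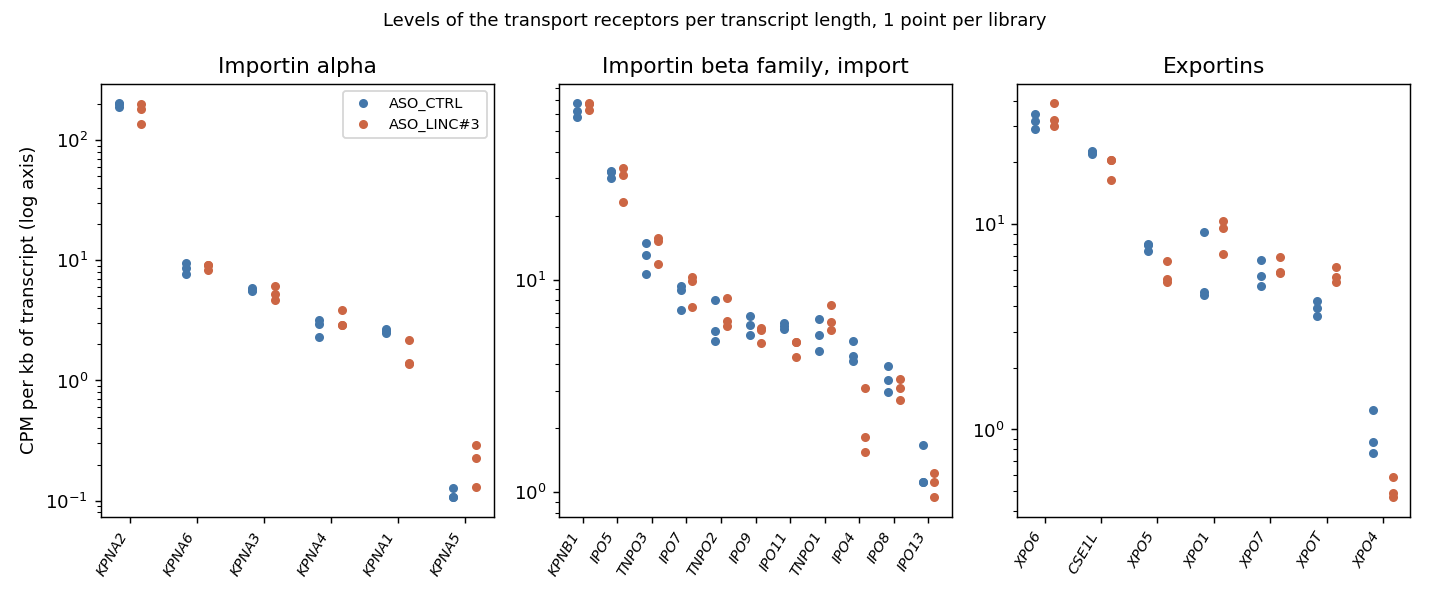
Level of each transport receptor gene in CPM per kb of transcript (y axis, log scale), with 1 point per library, for the importin alpha, importin beta and exportin families (x axis, ordered by control level). *KPNA2*, *KPNB1* and *XPO6* lead their families in both conditions. The points of *KPNA1*, *IPO11*, *IPO4*, *CSE1L*, *XPO4* and *XPO5* are lower in every ASO_LINC#3 library than in every ASO_CTRL library. Those of *XPOT* and of the untested *KPNA5* are higher in every ASO_LINC#3 library.

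The exportins lay on both sides of their control level, and none of the 7 was called, where 7.54% of all tested genes were. *XPOT*, the exportin of tRNA, had 26.9, 25.0 and 22.9 CPM in ASO_CTRL and 39.4, 33.2 and 35.2 CPM in ASO_LINC#3. All knockdown libraries were higher, by similar amounts in each, and the log2 fold change of 0.53 ± 0.15 had an adjusted p-value of 0.0305. *XPO5*, which exports microRNA precursors, lay on the other side with 42.6, 42.0 and 39.6 CPM in ASO_CTRL and 28.7, 35.1 and 27.9 CPM in ASO_LINC#3. Here too the conditions did not overlap, and the log2 fold change was -0.43 ± 0.15 with an adjusted p-value of 0.0622.

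*XPO4*, an exportin of the translation factor eIF5A, was the lowest exportin per length of transcript. It had 12.3, 8.60 and 7.54 CPM in ASO_CTRL and 4.85, 5.82 and 4.61 CPM in ASO_LINC#3, without overlap, and a log2 fold change of -0.88 ± 0.25 with an adjusted p-value of 0.0356. *XPO1*, the general exportin for leucine-rich export signals, varied within the controls, at 22.5, 45.9 and 23.4 CPM, and was at 35.7, 47.9 and 52.1 CPM in ASO_LINC#3. The conditions overlapped because of ASO_CTRL replicate 2, and the log2 fold change of 0.57 ± 0.27 with an adjusted p-value of 0.166 became 0.98 without that library.

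*CSE1L*, which returns importin alpha to the cytoplasm, had 80.9, 78.5 and 80 CPM in ASO_CTRL and 73.0, 72.7 and 58.3 CPM in ASO_LINC#3. The knockdown libraries were all lower, yet the log2 fold change was -0.23 ± 0.14 with an adjusted p-value of 0.278. *XPO6*, the exportin of actin with profilin, was the most abundant exportin per length, with 40.4% ± 0.833 of the family in ASO_CTRL and 42.0% ± 4.57 in ASO_LINC#3, and its log2 fold change was 0.08. Together with the 0.11 of *XPO7*, these were the exportins closest to their control level.

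The summed level of the 48 genes was 2680, 2800 and 2650 CPM in ASO_CTRL and 2790, 2800 and 2450 CPM in ASO_LINC#3. The knockdown replicates 1 and 2 were within the range of the controls or at its upper end, and replicate 3 was below it. The median change of the 47 tested genes in the single knockdown libraries was 0.01, 0.08 and -0.18 in replicates 1, 2 and 3, which again set replicate 3 apart. Over all tested genes the 3 medians were within 0.01 of 0.

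Several of the genes overlap or adjoin another gene. Neighbours were searched among genes with listed counts that matched a single annotated gene, so genes without counts could not be found. Within that search, 9 of the 48 overlap at least 1 gene of the opposite strand, and 10 have the start of a divergent gene within 1000 bases. *NUP62* overlaps *IL4I1* on the same strand over most of its length. *IL4I1* encodes an amino acid oxidase, and it rose from 0.594 ± 0.391 to 4.03 ± 0.831 CPM with a log2 fold change of 2.63 and an adjusted p-value of 0.0022, a level far below that of *NUP62*. *NUP98* starts head to head with *PGAP2*, a gene of glycolipid anchor remodelling whose log2 fold change was -0.71 ± 0.19 with an adjusted p-value of 0.0264. On opposite strands, *XPO5* overlaps *POLR1C* over 40085 bases and *NUP88* overlaps *RABEP1* over 26698 bases, introns included. *POLR1C* had a log2 fold change of -0.23 ± 0.16 and *RABEP1* 0.29 ± 0.15. As with *IPO4*, the strand setting is not given, so reads from these overlaps cannot be told apart. For *AAAS* this search found no overlap or divergent start, counted from the outermost start of its annotated gene. A neighbour without listed counts would have been missed.

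The promoters of *AAAS*, the called gene, and of *XPOT* and *TPR*, named genes whose knockdown libraries were all above the controls, are shown to set a gene that fell beside those on the other side. They are RefSeq sequences of GRCh38.p14, read 5′ to 3′ on the strand of the gene, from 250 bases before the RefSeq start. They run only as far as they match no spliced sequence of an annotated transcript. Introns were not excluded, so a sequence may lie within the annotated span of a gene with a start further upstream. Capitals mark matches on either strand to the motifs searched. These were NRF1 (GCATGCGC), the NF-Y box (CCAAT), the GC box (GGGCGG), the E-box (CACGTG), the ETS motif (CCGGAAG), AP-1 (TGANTCA) and an ATF4 motif (TGATGNAA). *AAAS* at chr12:53321611-53321860 on the minus strand holds none of them. *XPOT* at chr12:64404142-64404391 on the plus strand holds 2 GC boxes and 2 ETS matches, of which a GC box and an ETS match overlap. *TPR* at chr1:186375326-186375503 on the minus strand holds 2 NF-Y boxes and 1 GC box.
AAAS: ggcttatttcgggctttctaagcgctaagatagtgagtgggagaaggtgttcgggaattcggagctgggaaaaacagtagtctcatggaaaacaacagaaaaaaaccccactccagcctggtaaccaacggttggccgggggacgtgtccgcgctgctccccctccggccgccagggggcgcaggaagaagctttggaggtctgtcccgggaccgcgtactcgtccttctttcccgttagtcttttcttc
XPOT: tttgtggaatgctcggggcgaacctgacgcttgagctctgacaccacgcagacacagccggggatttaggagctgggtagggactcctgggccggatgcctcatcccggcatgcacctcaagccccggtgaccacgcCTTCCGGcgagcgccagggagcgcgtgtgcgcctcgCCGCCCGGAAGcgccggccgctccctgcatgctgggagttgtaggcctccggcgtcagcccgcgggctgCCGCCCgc
TPR: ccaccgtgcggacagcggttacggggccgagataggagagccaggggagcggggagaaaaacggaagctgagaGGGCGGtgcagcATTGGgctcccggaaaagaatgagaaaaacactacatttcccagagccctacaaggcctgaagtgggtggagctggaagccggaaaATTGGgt

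Of the 7 motifs, the ETS motif was found in 12 of the 43 transport gene promoters with a sequence (27.9%), against 16.7% of the 8820 promoters of tested genes. The NF-Y box was found in 19 (44.2%, against 35.2%) and the GC box in 23 (53.5%, against 68.9%). The NRF1 motif was in 4 (9.30%, against 4.92%), the E-box in 6 (14.0%, against 9.15%), the AP-1 motif in 2 (4.65%, against 3.96%) and the ATF4 motif in 1 (2.33%, against 1.25%). These are matches of letters in a window of 250 bases, given as a description.

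Further genes of the pore, the Ran cycle, mRNA export and the nuclear envelope, taken as a list of 55 genes by function, gave the same picture. All 55 were tested and none was called by edgeR, DESeq2 or limma-voom, which called 7.54%, 10.9% and 8.27% of all genes. *RANBP17* and *RANBP3L*, chosen along with them, had no reads listed and are not among the 55. Of the 55, 12 reached an unadjusted p-value below 0.05 in edgeR, 6 lower and 6 higher (21.8%, against 32.4% of all genes). The median log2 fold change was -0.02. Without ASO_LINC#3 replicate 3, 6 were called (10.9%, against 17.2% of all genes), *NUPL2*, *NMD3*, *LMNB2*, *SUN1*, *SYNE1* and *BANF1*.

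Within this list, the gene of the Ran cycle with the smallest p-value was *RCC1*, the nucleotide exchange factor that loads Ran with GTP on chromatin. It had 113, 109 and 110 CPM in ASO_CTRL and 79.2, 80.8 and 91.9 CPM in ASO_LINC#3, without overlap, and a log2 fold change of -0.40 ± 0.12 with an adjusted p-value of 0.0461. *RAN* itself had -0.30 with an adjusted p-value of 0.0858. *NUPL2*, a nucleoporin of the cytoplasmic filaments, had 101, 102 and 108 CPM in ASO_CTRL and 71.1, 65.2 and 84.9 CPM in ASO_LINC#3, and its log2 fold change was -0.49 ± 0.14 with an adjusted p-value of 0.0322.

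On the higher side were *DDX39B*, the RNA helicase that loads the mRNA export machinery, *SUN1*, an inner nuclear membrane protein that links the lamina to the cytoskeleton, and *NMD3*, the adaptor for export of the large ribosomal subunit. *DDX39B* had 12.3, 14.1 and 9.44 CPM in ASO_CTRL and 16.5, 24.5 and 20.6 CPM in ASO_LINC#3, with a log2 fold change of 0.79 ± 0.21 and an adjusted p-value of 0.0276. *SUN1* had 103, 98.1 and 109 CPM and 177, 160 and 122 CPM, with 0.56 ± 0.15 and an adjusted p-value of 0.0277. Neither overlapped between the conditions, whereas *NMD3* did, with a log2 fold change of 0.61 ± 0.22 and an adjusted p-value of 0.0769.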

How the data were processed

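H226 cells transfected with ASO_CTRL or ASO_LINC#3 were profiled by RNA-seq from oligo-dT-primed cDNA, with 3 libraries per condition grouped by the sample labels. The study's RNA-seq methods speak of BJ cells, but the labels give H226, which was followed. The authors aligned single reads to hg19 with STAR and deposited whole-number read counts per gene name, without normalization. The counting tool, annotation and strand setting are not given in the sources used here. Reads of 4 rows that name no gene (24.8% to 28.1% of a library) were left out, and 21 gene names that had become dates were used as listed.

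Counts were analysed in R 4.3.3 with edgeR 4.0.16 (filterByExpr, TMM scaling, quasi-likelihood F-test, no block), with p-values adjusted by the Benjamini-Hochberg method. The common biological coefficient of variation was 0.159. For the change in a single library, the mean log2 CPM of the controls (prior count 2) was subtracted. Counts of every pair of libraries of a condition differed beyond sampling noise, and each library was treated as 1 replicate. This spread cannot show whether the cultures were kept apart. Same-numbered libraries of the 2 conditions did not deviate together (correlations from -0.18 to 0.059), so no pairing was used.

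GC content, lengths, overlaps and GRCh37 positions were taken from GENCODE lifted over to GRCh37, where all 48 genes were matched. Alternatives were DESeq2 1.42.0, limma-voom (limma 3.58.1), other scalings, filters, thresholds and dispersion, a replicate block, the omission of each library in turn, and, added after seeing the data, a correction for GC content and length by splines with 5 degrees of freedom, alone and with the block. The comparison was tested on simulated data. Of 98 genes given a log2 change of 1 in either direction, 49 were called. Of 97 given a log2 change of 2, 94 were called.

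The genes and lists were chosen with earlier results of these data known. Named are the called gene, in each role group the most abundant gene, those with the 2 smallest p-values and the gene nearest to no change, a fixed list of well-known genes, and in each class of the list of 55 the gene with the smallest p-value. *NDC1*, *RAN*, *RAE1*, *NUP214*, *NUP88* and the other genes outside this rule were named after their values were seen.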

Additional observations from a re-analysis of the deposited data

Results flagged for a closer look

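The share of reads that did not align, which enters no comparison, was at least 15.8% in every ASO_LINC#3 library and at most 14.1% in every ASO_CTRL library, so the conditions did not overlap. Its part in the results was not tested.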

How the results depend on the processing

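The count of differentially expressed nucleoporin and receptor genes was small and moved with the setting. It was 1 as reported, with upper quartile scaling, DESeq2 size factors, library size only, robust dispersion, either filter on low counts or no bound on the fold change. Where the bound was kept, 6.3% to 7.71% of all genes were called in these fits. It was 2 (*AAAS* and *IPO4*) with DESeq2, with limma-voom and with the correction for GC content and length, alone or with the replicate block. In these settings 10.9%, 8.27%, 11.9% and 7.82% of all genes were called, in that order. At an adjusted p-value of 0.05 the count was 5 (10.6%, against 16.8% of all genes). With the replicate block it was 0, with 656 genes called in all (4.47%) against 1106 (7.54%) and an adjusted p-value of 0.0106 for *AAAS*. Leaving out ASO_LINC#3 replicate 3 gave 4 (8.51%, against 17.2% of all genes). Leaving out any other library gave 0, where 2.42% to 3.5% of all genes were called. At such shares a set of 47 genes may hold no call. In the list of 55 further genes the count was 0 except for 2 at an adjusted p-value of 0.05 (*DDX39B* and *SUN1*). At that threshold 16.8% of all genes passed. Leaving out 1 library gave 0 to 6 in this list. Among these omissions the highest counts came without ASO_LINC#3 replicate 3, when 2616 genes were called in all, whereas leaving out any other library gave 359 to 531. The cause was not tested. The median log2 fold change of the 47 genes stayed between -0.13 and 0.01.

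Of the 612 values of single named genes under 17 settings, 580 kept their direction and their side of the threshold, 6 of *AAAS* lost the call, 10 of other genes gained it and 16 changed sign, in 8 genes. With the correction for GC content and length, the log2 fold change became -0.0044 in *IPO7*, -0.027 in *NUP160* and -0.00041 in *NUP62*. With the replicate block added to it, *NUP160* had -0.032 and *NUP62* had -0.011. When 1 library was left out, the values ran from -0.05 to 0.12 in *KPNA6*, from -0.29 to 0.04 in *NUP107*, from -0.075 to 0.16 in *NUP160* and from -0.019 to 0.22 in *NUP35*. They ran from -0.41 to 0.025 in *NUP50*, from -0.021 to 0.062 in *NUP62* and from -0.033 to 0.15 in *XPO6*. Depth limits the low genes most, such as *XPO4* with 17 to 91 reads per library.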
